A study of Mus musculus with 6 samples.

Results

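H3K27ac, the acetylation of histone H3 that marks active promoters and enhancers, was examined at the heat shock protein and DnaJ chaperone genes of mouse quadriceps. The regions were the rows of both deposited peak tables whose nearest gene, as the authors annotated it, had a name beginning with Hspa, Hspb, Hspd, Hspe, Hsph or Hsp90, with Dnaja, Dnajb or Dnajc, or with Hsf, each followed by its number. They numbered 138 of 46988 peaks in control mice and 125 of 40721 peaks in detrained mice, and carried 61 gene names in each list, 58 of them in both. The name rule also takes Hsf2bp, whose product binds a heat shock factor and is no chaperone, with 10 control and 9 detrained peaks.

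All mice were male wild-type animals kept in individual cages, of the strain C57BL/6J by the methods of the study. The labels give C57BL/6 for the H3K27ac libraries and C57BL/7 and C57BL/8 for the inputs. Control mice had no wheel, and detrained mice had free access to a wheel for 4 weeks from 8 weeks of age and were harvested 72 hours after the last bout of running. Each H3K27ac library came from the quadriceps of 1 animal, with 2 libraries per group (C2 and C3 in control, Ex1 and Ex2 in detrained mice) and 1 input library per group. The comparison asks which acetylation at these genes differed after running followed by rest, and the sedentary-to-running step itself was not analysed here.

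Heat shock proteins hold other proteins in a folded or foldable state. Small heat shock proteins (Hspb) bind unfolding clients, Hsp70 proteins (Hspa) bind and release them in a cycle driven by ATP, J-domain proteins (Dnaj) bring clients to Hsp70 and speed its ATPase, Hsp110 (Hsph1) exchanges its nucleotide, Hsp90 matures kinases and receptors, and the mitochondrial chaperonin Hspd1 with its cap Hspe1 encloses imported proteins. Heat shock factors (Hsf) are the transcription factors that bind inverted GAA units, named heat shock elements, in the promoters of the inducible members. In muscle the small heat shock proteins, Hsp70 and the Unc45b-Hsp90 system guard sarcomere proteins against the strain of contraction.

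The H3K27ac libraries held 20805019 to 22400894 tags, and the listed peaks took 44.7% to 49.4% of them. The inputs against which the lists were called were unequal, with 10812470 tags in control and 21298438 in detrained mice. Defining muscle genes were marked in both groups (6 of 6 promoters), as were 3 of 3 fibroblast and 4 of 4 endothelial genes, and 0 of 3 liver genes were marked. Immune markers moved with the group. A promoter peak was listed at 1 of 4 of them in control mice (Csf1r) and at 4 of 4 in detrained mice, with summed tags per 10000000 of 93.0 and 125 for C3 and C2, and of 502 and 581 for Ex2 and Ex1. These sums count only listed peaks, and in bulk tissue more cells of a type and more acetylation per cell cannot be told apart. The part of immune cells in the values below was not tested.

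The promoter sequences that carry the motifs used below, from RefSeq on GRCm38.p6 (mm10), are shown 5′ to 3′ with the motif in capitals. First stand the 130 bases before the start of the inducible Hsp70 copies, chr17:34972157-34972286 for Hspa1a and chr17:34959239-34959368 for Hspa1b, both on the minus strand, with their heat shock element of 2 units (GAANNTTC) 104 bases upstream of the start.
Hspa1a: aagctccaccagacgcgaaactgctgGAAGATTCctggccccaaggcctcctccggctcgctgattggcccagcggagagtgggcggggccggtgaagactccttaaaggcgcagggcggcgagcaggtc
Hspa1b: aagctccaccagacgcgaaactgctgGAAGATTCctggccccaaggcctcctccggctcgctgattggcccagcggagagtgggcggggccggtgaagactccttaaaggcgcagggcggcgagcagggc
The copies matched at 129 of these 130 bases. Next are elements of other heat-inducible members. They lie at chr5:135887787-135887844 (plus strand) for Hspb1, chr1:55088044-55088091 (minus) for the promoter that Hspd1 shares with Hspe1, chr5:149636347-149636384 (minus) for Hsph1 and chr4:40722329-40722366 (plus) for Dnaja1.
Hspb1: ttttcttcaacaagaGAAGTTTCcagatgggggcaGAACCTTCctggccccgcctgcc
Hspd1: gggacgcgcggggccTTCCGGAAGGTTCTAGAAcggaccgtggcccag
Hsph1: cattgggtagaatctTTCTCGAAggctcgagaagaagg
Dnaja1: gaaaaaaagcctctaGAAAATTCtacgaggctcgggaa
The capitals of Hspd1 span 2 overlapping matches of 3 contiguous units. Last are 2 genes of endoplasmic reticulum chaperones, shown because their capitals hold CCAAT and CCACG with 9 bases between them, the arrangement known from genes induced by unfolded protein in that compartment. They lie at chr2:34772010-34772058 (plus) for Hspa5 and chr14:118937812-118937860 (plus) for Dnajc3.
Hspa5: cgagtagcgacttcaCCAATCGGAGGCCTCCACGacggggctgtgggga
Dnajc3: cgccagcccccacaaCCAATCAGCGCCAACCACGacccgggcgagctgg

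Chaperone promoters were acetylated in most of the family. Of the 78 protein-coding genes that match the name rule in RefSeq, 64 (82.1%) had a listed peak from 1000 bp before to 100 bp after a start site in both groups, against 51.7% of 21000 genes. All 8 Hspb genes, all 3 Hsp90 genes, Hsph1, Hspd1 with Hspe1, all 4 Dnaja genes and 12 of 13 Hspa genes were among them. Of the B-type J-domain genes 9 of 13 were marked, and of the C-type genes 22 of 28. The 11 genes marked in neither group included Hsf3, Hsf5, Hsf2bp, Dnajb3, Dnajb7, Dnajb8, Dnajb13 and 4 Dnajc genes (Dnajc5b, Dnajc5g, Dnajc6, Dnajc22). Hspa13 and Dnajc24 had a promoter peak in detrained mice only, and Dnajc4 in control mice only. The Dnajc24 peak paired with a control peak centred 561 bp past the start, which ended outside the window. The peaks listed in 1 group were weak or intermediate, at 35.7 tags per 10000000 for Hspa13 and 66.7 for Dnajc4.

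For 59 of the 64 marked genes the promoter peaks of the groups paired 1 to 1, each covering at least 50% of the other. These were 57 distinct peaks, since Hspd1 and Hspe1, and Hspa1a and Hspa1l, share theirs. For 12 genes the authors' annotation named the peak for a neighbour, for example Ttc41 for Hsp90b1, Cryab for Hspb2, Fubp1 for Dnajb4 and Gm6297 for Dnaja1. These peaks are given here by position. Where a gene has several starts the pair of promoter peaks with the most tags was used. For Dnajb4 this is the peak it shares with Fubp1, and a peak under its own name covers an internal start.

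**Figure D1:**
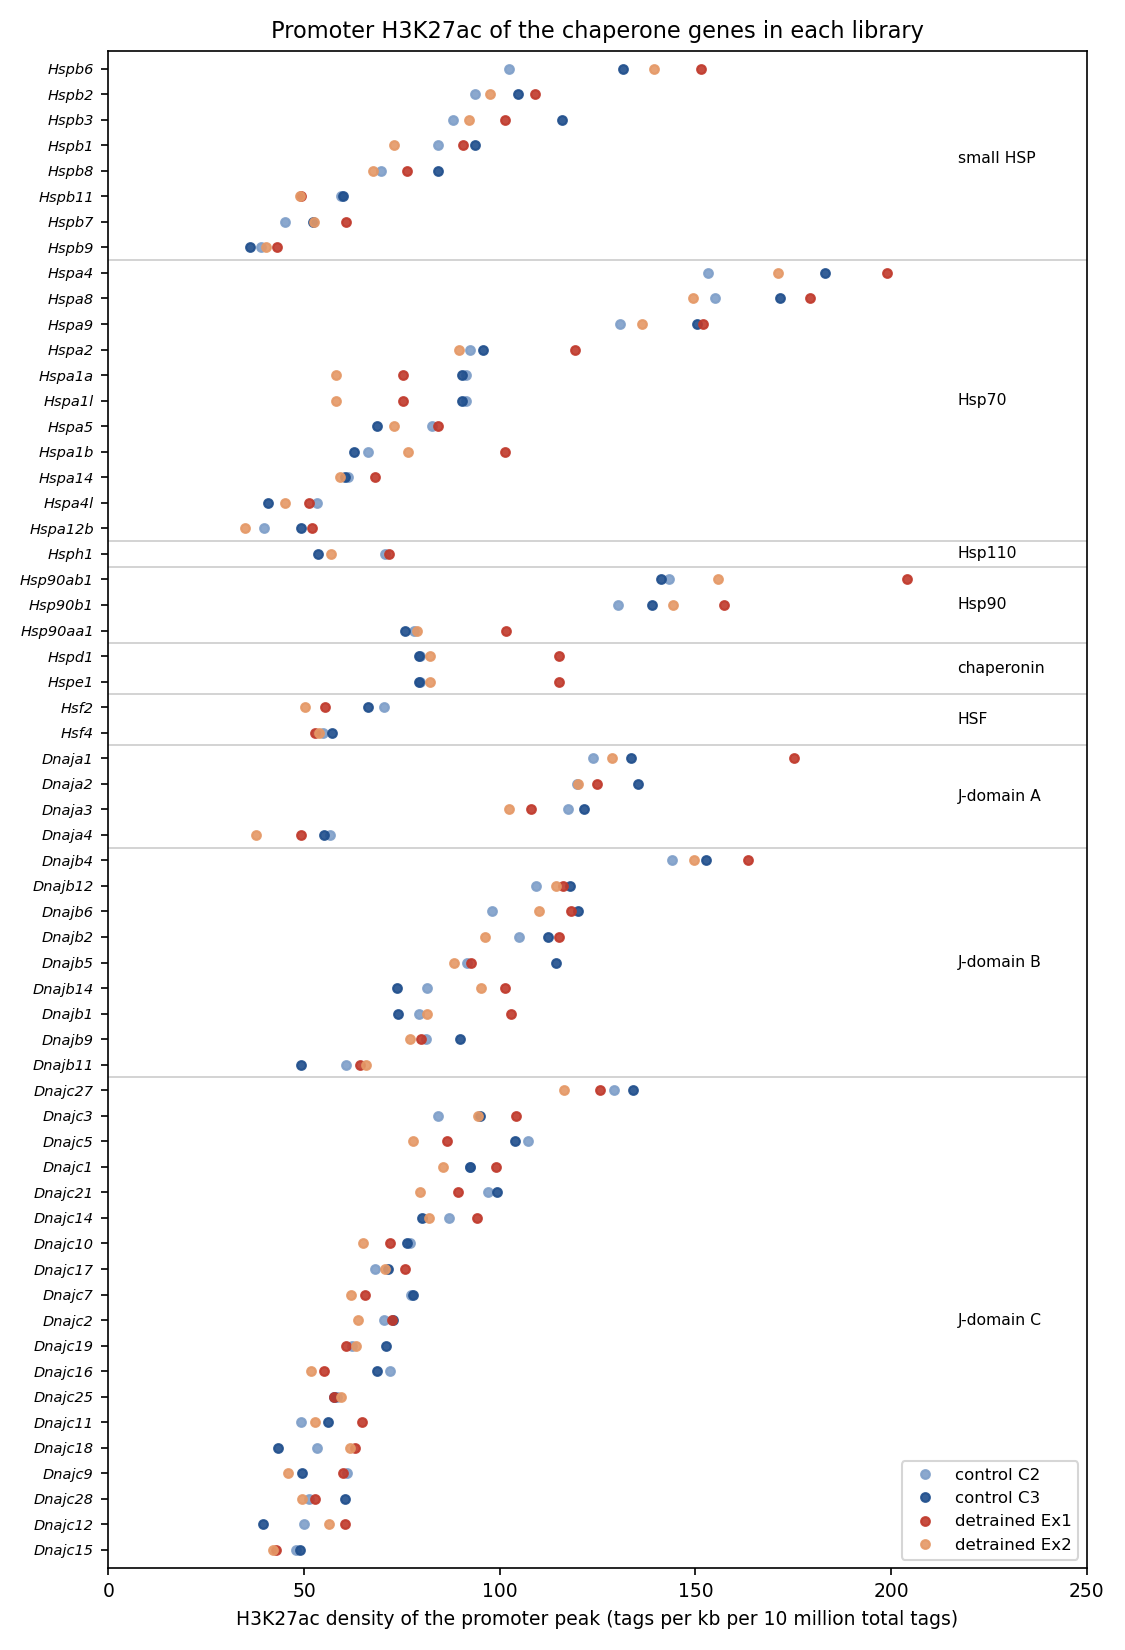
H3K27ac density of the promoter peak (x axis, tags per kb of peak per 10000000 total tags) for the 59 genes with a paired peak, grouped by role, with 1 point per library. Hspa4, Hspa8 and Hsp90ab1 lie farthest to the right, and detrained library Ex1 lies right of Ex2 at 55 of 59 genes.

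Density was expressed as tags plus 0.5 per kb of the called peak per 10000000 total tags of the library. Over these promoters it ran from 39.6 to 177 as the mean of 4 libraries, with a median of 82.0. Paired peaks within 1000 bp of a start site had medians of 67.5 to 78.2 per library for the chaperone genes and 59.0 to 63.6 for all genes. The authors' per-library values were shrunken toward each other (regularized log values), so the spread between the libraries of a group is understated, more so at weak peaks.

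The highest promoters were those of Hspa4, Hspa8 and Hsp90ab1, at means of 177, 164 and 161. Dnajb4 followed at 152 by the peak shared with Fubp1, while the peak under its own name had 89.9 and 94.0 in control and 89.3 and 71.6 in detrained mice. This order is by the mean of 4 libraries. In control mice Dnajb4 (148) was above Hsp90ab1 (142), and in detrained mice Hsp90ab1 (180, with Ex1 at 204) was above Hspa8 (164). Hspa4, an Hsp110-type exchange factor, had 153 and 183 in control and 199 and 171 in detrained mice. Hspa8, the constitutive cytosolic Hsp70, had 155 and 172 in control against 179 and 149 in detrained mice. The libraries of the groups interleaved at both genes, and the group levels differed by less than the spread between libraries at both. Hspa9, the mitochondrial Hsp70, had 131 and 150 in control and 152 and 136 in detrained mice. Hsp90b1, the Hsp90 of the endoplasmic reticulum, had 130 and 139 in control and 157 and 144 in detrained mice, so its detrained libraries lay above both control libraries per kb, with a log2 ratio of 0.16, but in tags per peak the ratio was -0.017. The compartment's Hsp70, Hspa5 (BiP), had 82.7 and 68.7 against 84.3 and 72.9, with a log2 ratio of 0.06 and overlapping groups. By the mean of 4 libraries Hsp90b1 (143) and Hspa9 (142) ranked next after Dnajb4, and the values of the 2 genes interleaved with each other. Hspa5 lay below both in every library, and at a mean of 77.1 it was under the median of the promoters.

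Among the small heat shock proteins the promoter density was highest at Hspb6, which is abundant in muscle, and lowest at Hspb9. Hspb6 had 102 and 132 in control and 151 and 139 in detrained mice. Its detrained libraries were the upper 2, but the gap between C2 and C3 was 0.36 on the log2 scale, larger than the 0.32 between the groups. Without C2 the ratio was 0.14 and without Ex1 0.27, both under the 25% excess required for a call below. The called length was 4290 bp in the control and 3450 bp in the detrained list, and in tags per peak the groups overlapped with a log2 ratio of 0.0098. Hspb1 (Hsp27) had 84.4 and 93.6 against 90.5 and 73.0, and Hspb8, the partner of Bag3, had 69.8 and 84.2 against 76.3 and 67.5. Both overlapped between groups. Hspb7, a cardiac and skeletal muscle member, had 45.0 and 52.2 in control and 60.6 and 52.6 in detrained mice, above control by 0.22 with a margin of less than 1 between the nearest libraries. Counted per peak its tags gave a log2 ratio of 0.34 and a call as higher. Hspb3 had 88.1 and 116 against 101 and 92.1, and the groups overlapped. The peak of Hspb3, centred 3610 bp from its start, was 9138 bp long in the control list, that of Hspb8 was 11860 bp and that of Hspb7 8276 bp, against a median of 1781 bp over the control chaperone peaks. The broadest chaperone peaks of the control list were those of Hspb8 and of Dnajb5, at 10211 bp. In the detrained list these 2 were 11629 and 11311 bp, and the broadest was a peak of 16123 bp inside Ywhag that the table named for Hspb1, 23242 bp away. It paired with a control peak named for Ywhag. With it the summed tags of peaks named Hspb1 were 383 per 10000000 in the control list and 1679 in the detrained list. The Hspb1 promoter peak itself had a log2 ratio of 0.11 in tags per peak and -0.13 per kb.

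Among the heat-inducible genes are the tandem Hsp70 genes Hspa1a and Hspa1b on chromosome 17, where density after detraining was higher at both Hspa1b peaks and lower at the Hspa1a promoter. The peak that begins 67 bp upstream of Hspa1b in control and 70 bp upstream in detrained mice (chr17:34959305-34963175 in the control list) had densities of 66.2 and 62.8 in control and 101 and 76.6 in detrained mice. The means were 64.5 ± 2.4 and 88.9 ± 17.5 (SD, n = 2), a log2 ratio of 0.45. Both detrained libraries were above both control libraries, Ex1 far more than Ex2. A second peak 6205 bp upstream had 28.1 and 24.7 against 36.8 and 29.9, a log2 ratio of 0.33. In tags per peak, without division by length, the ratios were 0.43 and 0.63. Without Ex1 they were 0.25 and 0.18 per kb, and without C3 that of the second peak was 0.24, each too small for a call.

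The peak over the divergent promoters of Hspa1a and Hspa1l, which the tables name for Hspa1l, went the other way per kb. It had 91.4 and 90.4 in control and 75.3 and 58.1 in detrained mice, a log2 ratio of -0.46, with both detrained libraries lower. The called length was 1286 bp in control mice against 2150 bp after detraining, and in tags per peak the ratio was 0.28. Without Ex2 the ratio per kb was -0.27, too small for a call. Summed over the 3 peaks of the locus, tags per 10000000 were 440 (C2), 417 (C3), 655 (Ex1) and 503 (Ex2), over 7.52 kb of control and 8.87 kb of detrained peaks, a log2 ratio of 0.42. The neighbouring Lsm2 promoter had 107 and 112 in control and 130 and 101 in detrained mice, so its groups overlapped. Hspa1a and Hspa1b are near copies: of the 75-base windows of Hspa1b, 55.7% were found unchanged in Hspa1a or its upstream 500 bases, and of the windows in its own upstream 500 bases 29.8% were. Reads of 75 bases from such windows have no unique place and were dropped by the authors' alignment, so acetylation over these gene bodies and nearest the starts is uncertain, and the peaks stop short of Hspa1b in both lists.

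**Figure D2:**
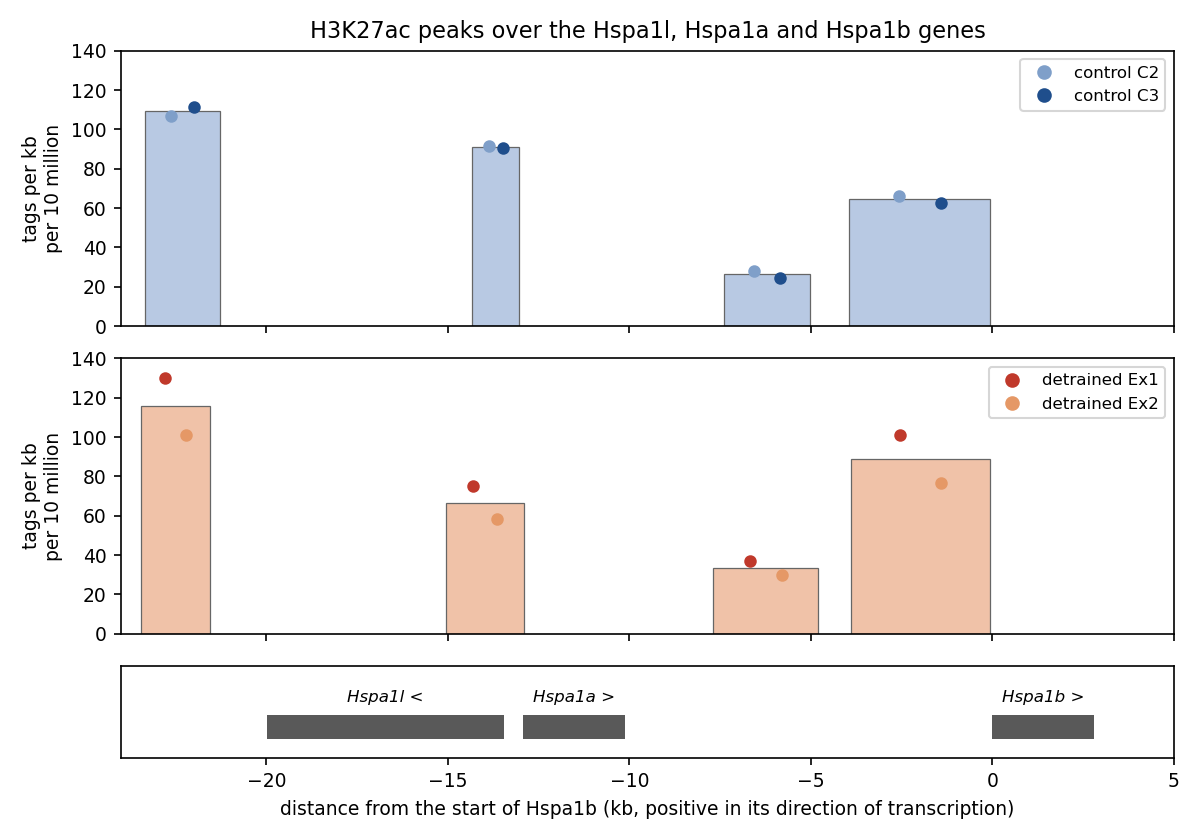
Peaks over the Hspa1l, Hspa1a and Hspa1b genes, with distance from the start of Hspa1b on the x axis (kb, positive in its direction of transcription) and density on the y axis (tags per kb per 10000000 total tags). Bars give the mean and the extent of each called peak, points the libraries. The leftmost peak is the Lsm2 promoter. The bar upstream of Hspa1b is higher in the detrained panel (88.9 against 64.5), and the Hspa1a and Hspa1l promoter bar is lower and wider.

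Over the 59 genes with a paired promoter peak the directions per kb were balanced with all 4 libraries in, where Ex1 lay above Ex2 at 55 of the 59. Both detrained libraries were above both control libraries per kb at 14 genes and below at 15, and 30 overlapped, while 53.8% of all shared peaks within 1000 bp of a start had groups that did not overlap. The 25% excess was reached by 6 genes in each direction, higher at Hsp90ab1, Hspb6, Dnajb14, Hspa1b, Dnajc18 and Dnajc12 and lower at Dnajc5, Hspa1a, Hspa1l, Dnajc16, Hsf2 and Dnaja4. Among all shared peaks within 1000 bp of a start 7.31% were called higher and 11.5% lower. These calls are per kb. In tags per peak 4 of the 45 paired chaperone peaks within 1000 bp of a start were called higher and 1 lower, against 476 and 632 of all 8273. On both scales 1 was called higher and 0 lower, against 51 and 95 of all 8273. Without Ex1 the Hsp90ab1, Hspb6 and Hspa1b promoters no longer reached the 25% excess. From these 14 genes above control the promoters of stress chaperones and of Hsp90 are given next, having been picked for their roles. Hsp90ab1, the constitutive cytosolic Hsp90, had 143 and 141 in control and 204 and 156 in detrained mice (142 ± 1.4 and 180 ± 34.2, SD, n = 2), a log2 ratio of 0.33. Hsp90aa1, its inducible partner, had 78.2 and 75.8 against 102 and 78.8 (0.22), and Hspd1 with Hspe1 had 79.8 and 79.3 against 115 and 82.3 (0.29). Dnajb1, the J-domain partner of inducible Hsp70, had 79.4 and 74.0 against 103 and 81.4 (0.26). At each of these 4 peaks both detrained libraries exceeded both control libraries per kb, but Ex2 stood close to control and Ex1 carried most of the difference. The log2 gap between Ex1 and Ex2 was 0.39, 0.37, 0.49 and 0.34 at these peaks, larger than the ratio between groups at each. Of the 4 only Hsp90ab1 reached the size required for a call, and without Ex1 its ratio was 0.13. In tags per peak the groups overlapped at Hsp90ab1, Hspd1 and Dnajb1, with log2 ratios of 0.16, 0.19 and 0.05, and at Hsp90aa1 the ratio was 0.21 with Ex2 just above C2. Hsph1 had 70.6 and 53.7 against 71.7 and 56.8, a ratio of 0.05, with overlapping groups. The called length was 1839 bp in control mice against 2776 bp after detraining, and the log2 ratio of tags per peak was 0.64. Dnaja1 had 124 and 133 in control and 175 and 129 in detrained mice, with Ex2 between the control libraries.

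Ex1 exceeded Ex2 at most chaperone promoters. It was above Ex2 at 43 of the 45 paired chaperone peaks within 1000 bp of a start site, with a median log2 gap of 0.16, and at 76.8% of all 8273 such peaks, with a median of 0.11. Farther away it was above Ex2 at 27 of 52 chaperone peaks. C3 and C2 had a median gap of 0.00225 at the chaperone peaks near a start. Whether Ex1 differed in the animal or in the immunoprecipitation was not tested.

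**Figure D3:**
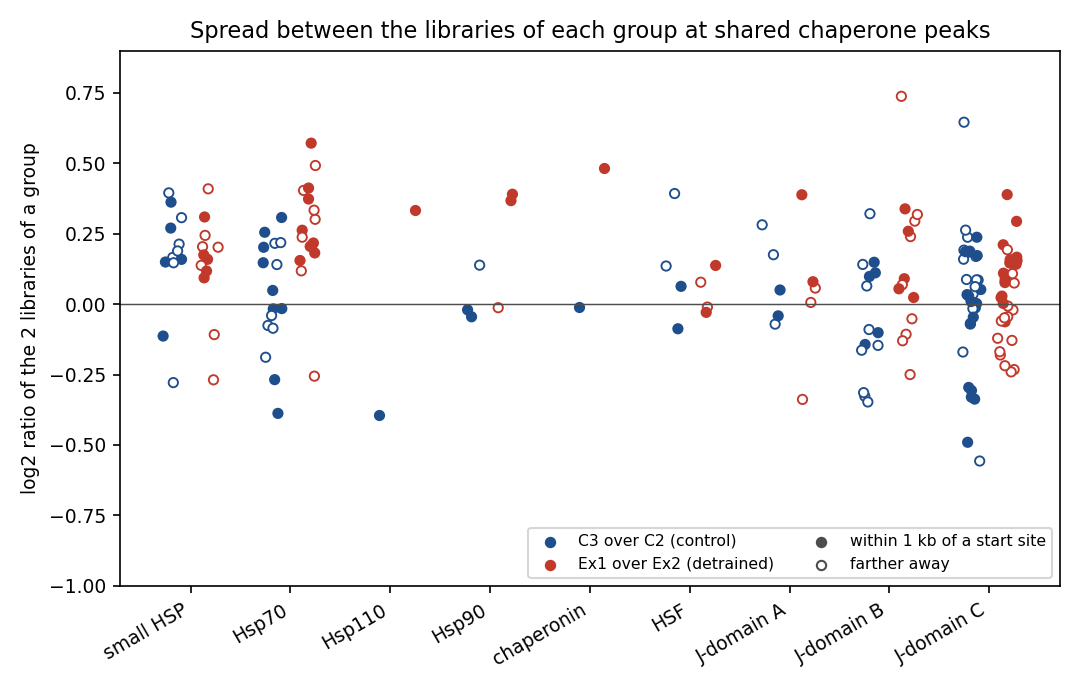
Log2 ratio of the 2 libraries of each group (y axis) at shared chaperone peaks by role (x axis), blue for C3 over C2 and red for Ex1 over Ex2, filled within 1 kb of a start site. Filled red points lie above 0 at 43 of 45 peaks, and red points of the Hsp90 and chaperonin promoters reach 0.37 to 0.49. Points are spread sideways for legibility, and Hsf2bp is left out.

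At the genes of the heat shock factors the density per kb was lower after detraining or differed little, and at the Hsf1 and Hsf2 promoters tags per peak went the other way. The Hsf1 promoter peak, which the detrained table named for Bop1, did not pair 1 to 1. Its densities were 59.7 and 51.1 in control and 40.1 and 38.9 in detrained mice, over 1180 and 2076 bp. In tags per peak both detrained libraries were higher there, with a log2 ratio of 0.33. A peak in an Hsf1 intron 6530 bp from the start had 31.2 and 34.3 against 26.9 and 25.5, a log2 ratio of -0.32 per kb and -0.54 per peak. Both detrained libraries were lower there on either scale, but the ratio per kb was -0.26 without C3 and -0.28 without Ex2, too small for a call, as also after centring on all shared peaks (-0.30) or scaling to the tags in listed peaks (-0.27). The Hsf2 promoter had 70.5 and 66.4 against 55.3 and 50.3 (-0.38), but its peak grew from 2045 to 3190 bp and its log2 ratio of tags per peak was 0.27. Hsf4, a factor best known from the lens, had 54.8 and 57.3 against 52.8 and 53.9, a ratio of -0.07.

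Among the J-domain genes most promoters differed little. Dnajb12, which anchors Hsp70 at the endoplasmic reticulum membrane, had 109 and 118 in control and 116 and 114 in detrained mice. Dnaja2 had 120 and 135 against 125 and 120. Dnaja3, the mitochondrial J-domain protein, had 117 and 122 against 108 and 102 (-0.19 per kb with both detrained libraries lower, but 0.034 per peak). Dnajb5, whose peak had the most tags of any J-domain gene (1050 and 1022 per 10000000), had 91.6 and 114 against 92.6 and 88.3, with C3 above the other libraries. Dnajb6, a suppressor of aggregation mutated in a muscular dystrophy, had 98.0 and 120 against 118 and 110 and overlapped. Dnajb9 and Dnajc3, both of the endoplasmic reticulum, had log2 ratios of -0.12 and 0.15 per kb, with both detrained libraries below both control libraries at Dnajb9 and Ex2 between them at Dnajc3. In tags per peak the groups overlapped at Dnajb9 (-0.085), and at Dnajc3 both detrained libraries were lower (-0.20). Dnaja4, which muscle expresses strongly, had 56.7 and 55.1 against 49.3 and 37.6 (-0.38), over a peak that grew from 2971 to 5254 bp and held more tags in detrained mice (log2 ratio 0.45 per peak). Without Ex2 its ratio per kb was -0.18.

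All shared peaks were then counted together. Among the 26432 pairs of control and detrained peaks, 97 carried a chaperone name in at least 1 list. Their median log2 ratio of detrained over control was 0.012, against -0.026 for all shared peaks, and ran from -0.56 to 0.55. The SD between the library medians of the chaperone peaks was 0.068 in control and 0.11 in detrained mice, larger than this median. The 2 tables were normalized separately and no test was made between groups, and 2 libraries against 2 can give no two-sided exact permutation p under 0.333. A peak was called when both detrained libraries lay on one side of both control libraries and the higher group exceeded the lower by at least 25%. By this rule 15 of the 97 chaperone peaks (15.5%) were called higher in detrained mice, against 8.36% of all shared peaks, and 12 (12.4%) lower, against 11.7%. Leaving out Ex1 left 7 called higher, against 8.57% of all shared peaks in that setting, and leaving out Ex2 gave 25, against 13.3%, so the higher count rests on Ex1. At 2-fold 0 chaperone peaks were called in tags per kb, against 0.0757% of all.

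Many of these calls depended on the length over which a peak had been called. In tags per peak 15 chaperone peaks were again called higher and 12 lower, each count against 14.0% of all shared peaks, but 13 of the 27 peaks called per kb had the opposite sign. They include Hspa1l, Hsf2, Dnaja4 and Dnajc16, lower per kb and higher per peak, and Dnajb14, Dnajc12 and the Hsf2bp peak at 15783 bp, the reverse. Called in the same direction on both scales were 6 higher peaks (6.19%, against 1.88% of all) and 2 lower peaks (2.06%, against 2.65% of all).

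**Figure D4:**
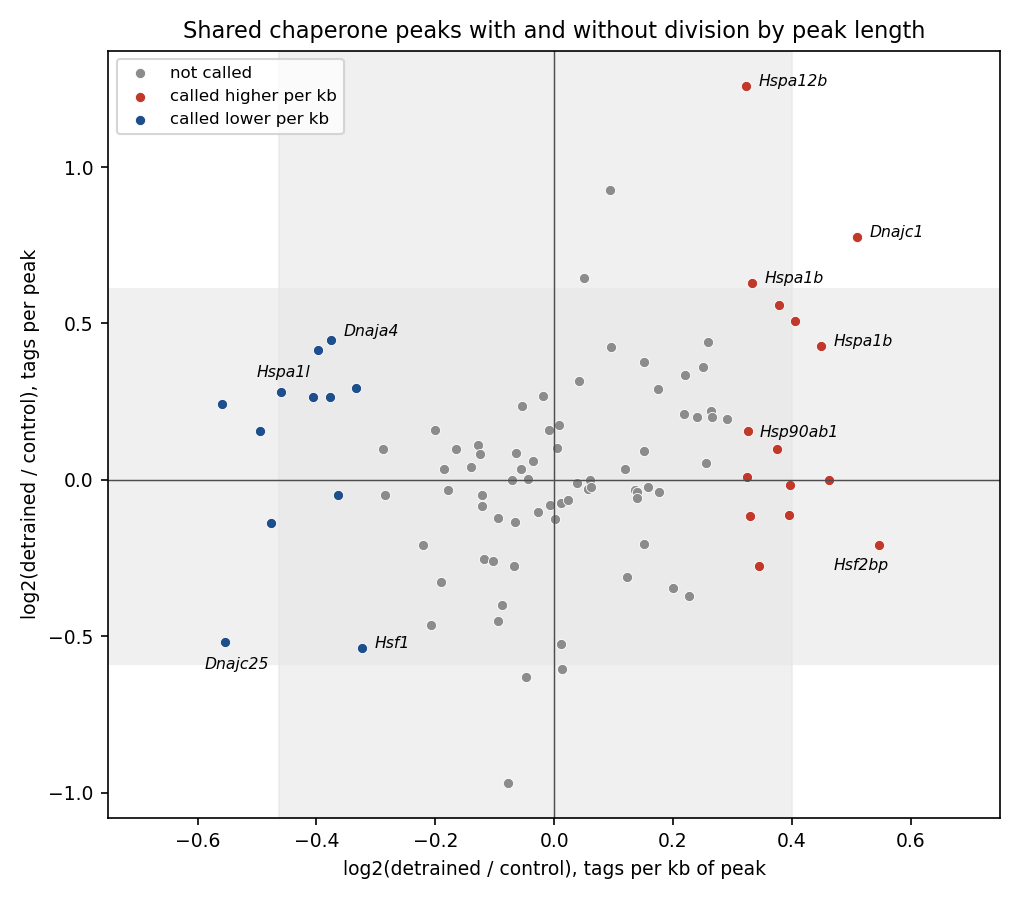
Log2 ratio of detrained over control per kb of peak (x axis) against the same per peak (y axis) for the 97 shared chaperone peaks, coloured by the call per kb. Grey bands hold the middle 90% of all 26432 shared peaks. The 6 red points at the upper right and the 2 blue points at the lower left are the peaks called alike on both scales, and 8 blue points lie above 0.

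The 6 higher peaks were both Hspa1b peaks, 1 peak each of Dnajc1, Dnajc13 and Dnajc5b, and an intronic peak of Hspa12b. The Dnajc1 peak, 49218 bp upstream of a gene for a membrane J-domain protein, had 32.4 and 34.4 in control and 47.2 and 47.8 in detrained mice (33.4 ± 1.4 and 47.5 ± 0.47, SD, n = 2), a log2 ratio of 0.51 per kb and 0.78 per peak. Its libraries agreed within each group far more closely than the groups. The Dnajc13 peak, 19141 bp upstream of an endosomal J-domain gene, had 22.3 and 22.9 against 30.8 and 29.2 (0.41), and Dnajc5b, a relative of the synaptic Dnajc5, had 30.0 and 23.9 against 36.8 and 32.9 (0.38). The Dnajc1 and Dnajc13 peaks kept their call when any 1 library was left out, and Dnajc5b lost it without C3 (0.21) and without Ex1 (0.30). Hspa12b, an Hsp70 relative expressed in endothelium, had 25.9 and 28.5 against 40.3 and 28.7 at its peak 13003 bp from the start (0.32). The called length was 4899 bp in control mice against 9380 bp after detraining, and the log2 ratio of tags per peak was 1.26. The detrained peak also covered most of a separate control peak at 7366 bp that held 133.3 tags per 10000000, and over the whole chain of overlapping peaks, a comparison added after seeing the data, the log2 ratio of summed tags was 0.25. Without Ex1 the ratio per kb was 0.077. Endothelial markers stood at summed tags of 457 and 666 per 10000000 in control and 983 and 642 in detrained mice, with Ex1 highest as at Hspa12b, and their part in the result was not tested. The 2 lower peaks were the Hsf1 intron peak and an intronic peak of Dnajc25 12020 bp from its start, with means of 27.1 ± 3.2 and 18.5 ± 2.2 (SD, n = 2, log2 ratio -0.55).

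Among all shared peaks 8.36% were called higher, 11.7% lower, and 46.0% had a ratio above 0. By role, 3 of 16 shared Hspa peaks were called higher and 1 lower, and 12 of 16 had a ratio above 0. Ex1 exceeded Ex2 at 15 of these 16 peaks, with a median log2 gap of 0.25. The higher Hspa peaks, those of Hspa1b and Hspa12b, all lost their call without Ex1. Of 12 Hspb peaks 1 was higher and 0 lower, and of 33 Dnajc peaks 6 were higher and 7 lower. All 5 Dnaja peaks had ratios under 0 per kb, with 1 called lower (Dnaja4), but in tags per peak 4 of the 5 were above 0 and Dnaja4 was called higher. Among the 8 Hsf2bp peaks 2 were called higher per kb, and none of these kept the call per peak. The median log2 ratio was 0.06 for Hspa, 0.03 for Hspb, -0.07 for Dnajc, -0.02 for Dnajb and -0.20 for the 4 Hsf peaks.

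The co-chaperones and other partners were taken from a list of 45 genes that includes the Bag and Cct families, Cryab, Unc45b, Hyou1 and Fkbp5. Of these, 42 had a promoter peak in both groups and 41 had at least 1 shared peak, 73 peaks in all. Their median log2 ratio was 0.007, and 8 peaks (11%) were called higher and 11 (15.1%) lower, against the 8.36% and 11.7% of all shared peaks given above. On both scales 3 were higher and 3 lower. Fkbp5, a glucocorticoid-responsive partner of Hsp90, has 4 shared peaks, and the peak 896 bp from its start had 65.1 and 47.4 in control and 73.4 and 86.8 in detrained mice (0.52 per kb). It was not called per peak (0.34), and the other Fkbp5 peaks had ratios of -0.11 to 0.037 per kb, of which the lowest was called lower per peak (-0.70) and another higher (0.54). The broad peak centred 11771 bp from the start of Bag3, the partner of Hspb8 in filamin turnover, had 68.7 and 84.3 against 63.1 and 58.4 (-0.33 per kb, -0.71 per peak), over 14670 bp in the control and 11255 bp in the detrained list. The other shared Bag3 peak, at 1252 bp, went the other way per kb, with 103 and 117 against 139 and 118 (0.23 per kb, -0.12 per peak). The promoter of Unc45b, the myosin chaperone, had 72.3 and 91.5 against 69.9 and 57.6 (-0.36 per kb, 0.18 per peak), with C2 close to Ex1. The co-chaperone ratios were not recomputed with 1 library left out. The highest ratio of the 73 was at a peak 3512 bp from the start of Fkbp4, another partner of Hsp90, with 11.4 and 12.2 against 20.9 and 16.1 (0.64 per kb, 1.31 per peak). The lowest ratio was at a Sil1 peak 61132 bp from the start, with 44.2 and 59.9 against 28.5 and 35.2 (-0.70).

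Heat shock elements were looked for in the promoter windows that RefSeq gave for 62 of the 78 genes, 250 bases before to 50 after the start, on both strands. A pair of facing units, GAANNTTC or the same pair in the opposite order, stood in 17 of them (27.4%), against 17% of 27025 genes. A run of 3 contiguous units stood in 4 (6.45%), Hspd1, Hspe1, Hsph1 and Dnajb6, against 0.662% of all. Matches of 3 units contain matches of 2, and Hspd1 and Hspe1 share 1 stretch. The run of Hsph1 lies after its start and is not printed. The plain CCAAT box stood in 45.2% of the chaperone promoters and 41.1% of all, and CCAAT with CCACG after 9 bases in 3 (4.84%: Hspa5, Hsp90b1 and Dnajc3), against 0.137% of all. No sequence was at hand for 16 genes, among them Hsp90aa1, Hsp90ab1, Hspa8 and Hsf1.

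The 15 genes with an inverted pair and a paired promoter peak had a median log2 ratio of 0.05 (from -0.46 to 0.45), and the 33 without had -0.01 (from -0.46 to 0.34). Hspa1a and Hspa1b, whose printed windows carry the same element, stood at these ends. The lowest value of both sets is 1 peak, counted with the motif as Hspa1a and without it as Hspa1l, so the ranges are not independent. Without division by length that peak had a ratio of 0.28, the direction of Hspa1b, and the medians were 0.10 with the pair and -0.029 without. For Dnajb4 the motif lies at the internal start and the ratio comes from the other peak. The 4 genes with 3 units had ratios of 0.05 to 0.29 per kb, from 3 distinct peaks. The groups overlapped per kb at Hsph1 and Dnajb6, and Ex1 exceeded Ex2 at all 3 peaks. In tags per peak the ratios were 0.19 (Hspd1 and Hspe1), 0.64 (Hsph1) and -0.067 (Dnajb6). Their median per peak was 0.19, the peak counted for 2 genes, against -0.019 without. The 3 genes with CCAAT and CCACG had 0.06 to 0.16 per kb. In tags per peak all 3 were below 0, at -0.029 (Hspa5), -0.017 (Hsp90b1) and -0.20 (Dnajc3). These are descriptions of letters in a window, beside peaks that extend well past it.

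A larger share of chaperone peaks than of all peaks lay at promoters. In control mice 23.9% of the chaperone peaks were annotated as promoters, against 11.2% of all peaks, and in detrained mice 20.8% against 12.6%. By distance 35.5% and 37.6% were centred within 1000 bp of a start site, against 20.5% and 23.4% of all. More than 10000 bp from a start lay 40.6% and 38.4%, against 59.6% and 57.5% of all. Many distal peaks lie in another gene than the one they are named for. All 3 distal control peaks named Hspa8, and all 4 in detrained mice, lie in Clmp, and the distal Hspb9 peaks lie in Rab5c. The strongest of the Clmp peaks, 18111 bp upstream of Hspa8, had 44.4 and 51.7 in control and 64.7 and 51.3 in detrained mice (0.26), and which gene it serves was not tested.

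**Figure D5:**
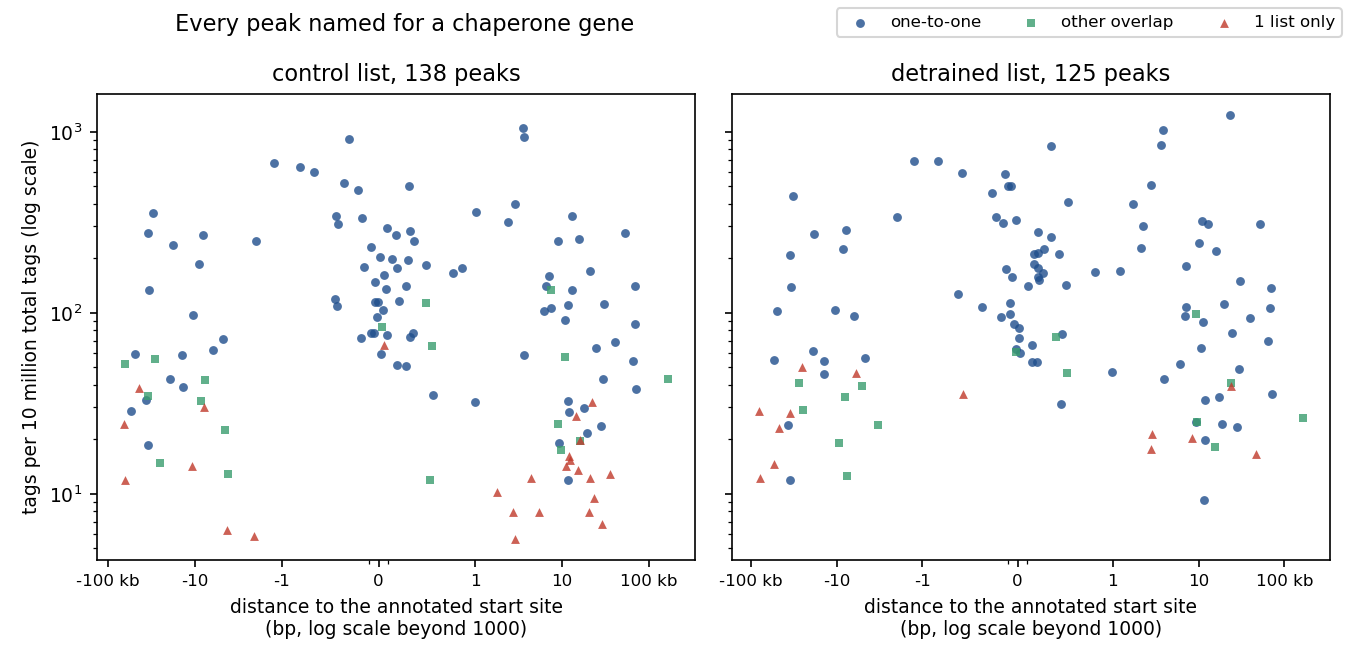
Every chaperone peak of the control list (left) and the detrained list (right), with distance to the annotated start site on the x axis (log scale beyond 1000 bp) and pooled tags per 10000000 on the y axis (log scale). Blue points pair 1 to 1 with the other list, green squares overlap it in another way and red triangles are in 1 list only. The red triangles lie at or below 66.7 tags.

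Peaks in 1 list only were weaker at the median, as they were among all peaks. Over all peaks the medians were 14.5 tags per 10000000 for those in 1 list only against 45.5 in control, and 18.3 against 57.9 in detrained mice. In control mice 25 chaperone peaks (18.1%) had no overlap with a detrained peak, against 27.9% of all, and their median was 12.9 tags per 10000000 against 74.7 over all control chaperone peaks. In detrained mice 13 (10.4%) had none, against 18% of all, with a median of 23.2 against 96.2. The control-only peaks with the most tags were the Dnajc4 promoter (66.7), an Hspa8-named peak in Clmp (38.5) and an intronic Hsf5 peak (32.1). The detrained-only peaks with the most tags were near Dnajc11 (50.3), Dnaja2 (46.3) and Hsph1 (39.4, in Wdr95). Both Hsf5 peaks were in the control list only. The names Dnaja1, Dnajc4 and Hsf5 were found in control and Dnajc30, Hspa13 and Hspb2 in detrained mice alone, but in the control list the promoter peaks of Hspb2 and Dnajc30 stood under the names Cryab and Bud23, and the Dnaja1 promoter peak was named Gm6297 in both lists.

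Over the 58 genes named in both lists the median log2 ratio of summed tags was 0.006, with 30 genes above 0, against -0.047 over 13524 genes. The range was -1.09 (Hsf1) to 2.13 (Hspb1), and at both ends a peak had another gene name in 1 list, Bop1 for Hsf1 and Ywhag for Hspb1. Hspa12a, an Hsp70 relative, had summed tags of 64.6 and 73.1 per 10000000 in control and 144 and 146 in detrained mice, a log2 ratio of 1.08, from 2 peaks in each list that were called over 3.17 kb in control and 6.81 kb in detrained mice. A control peak at another Hspa12a start was named Eno4 and is not in this sum. Hsph1 followed at 0.94, with 1 control and 2 detrained peaks. The listed length was 325 kb in control and 345 kb in detrained mice, of which the Ywhag peak alone gave 16123 bp.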

How the data were processed

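The samples were H3K27ac ChIP-seq libraries of quadriceps from control and 72-hour detrained mice. The authors sequenced 75-base reads and aligned them to mm10 with Bowtie (1.2 per the labels), keeping uniquely placed reads, and with HOMER they pooled the 2 libraries of a group and listed peaks at least 2-fold over the group's input at a false discovery rate of 0.05. The deposited signal of a peak is the pooled tag number scaled by the authors to 10000000 tags in all. For each library the authors gave regularized log2 values from DESeq2, made separately in each table. Their deposited log2 fold over input and adjusted p-value served only to pick stricter peaks for an alternative. No table holds tag counts per library, so the pooled tags were shared out by library total and log2 value. C2 and C3 were assigned to the control group and not to a numbered animal. Columns left unassigned numbered 0.

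Peaks were shared when they overlapped 1 to 1 with at least 50% of each covered. Density was (tags + 0.5) per kb per 10000000. The genes named were taken from the 3 with most tags per role, the shared peaks called (up to 8 each way), the strongest peaks in 1 list, the broadest peaks, and a list of well-known members. Some that met these rules are not described, among them Dnajc7 and the Dnajb2 peak at 11663 bp, called higher (0.46 per kb, 0.0006 per peak). Genes outside these rules were named after their values were seen. The members and lists were chosen with earlier results of these data known. Promoters were read from RefSeq. Steps were tested on simulated data. Computation used Python 3.11.15 with pandas 2.3.3, numpy 2.4.6 and scipy 1.17.1, and figures were drawn with matplotlib 3.10.9.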

Additional observations from a re-analysis of the deposited data

How the results depend on the processing

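The median log2 ratio of the shared chaperone peaks moved by less than the spread between libraries under every alternative tried (peak length, normalization, overlap, pseudocount, input, stricter peaks, position, mean, Hsf2bp left out) turned negative with input subtracted (-0.0042) and within 1000 bp of a start (-0.0071), and ranged from -0.038 to 0.098 when 1 library was left out, being lowest without Ex1 and highest without Ex2. The gene sums ranged from -0.056 to 0.079 in the same way. Leaving out 1 library gave 7 to 25 peaks called higher, 8 to 15 lower and 0 at 2-fold, while 8.57% to 13.3% of all shared peaks were called higher and 12.0% to 17.9% lower. With at least 80% overlap, which leaves 57 pairs, 8 peaks were higher and 1 lower (3.48% and 5.92% of all shared peaks in that setting). In tags per peak 1 was called at 2-fold (Hspa12b), where the detrained peak also covered most of another control peak. The share of all shared peaks called at 2-fold per peak is not given here. In tags per peak these called peaks changed sign: Dnajc12 (-0.11), Dnajc11 at -14021 bp (-0.12), Dnajb14 (-0.28), Hsf2bp at 15783 bp (-0.21) and at 27646 bp (-0.018), Hsf2 (0.27), Dnajc15 (0.26), Dnajb7 (0.24), Hspa1l (0.28), Dnajc11 at -30432 bp (0.30), Dnajc16 (0.42), Dnajc13 at 19099 bp (0.16) and Dnaja4 (0.45). This follows from the peaks being called over different lengths in the 2 lists, and which scale reflects acetylation better was not tested. By distance to the start the promoter share was 35.5% of control and 37.6% of detrained peaks. By the authors' annotation it was 36.7% among stricter control chaperone peaks, higher than the 23.9% of all control chaperone peaks. The share over all stricter peaks is not given here. Counting as unshared every peak without a 1-to-1 overlap of 50% gave 31.2% in control and 22.4% in detrained mice, against 43.7% and 35.1% of all peaks. A run of 3 units stood in 6.45% of promoters, a CCAAT box in 45.2% and CCAAT with CCACG in 4.84%. The motif alternatives with CCAAT, the chains of overlapping peaks and the omission of Hsf2bp were chosen after seeing the data. No paired analysis was made, since by the methods of the study mice were put at random in cages with or without a wheel, and no pairs are described. The control columns also do not carry the animal numbers of the labels. Depth is about the same in all 4 libraries, the weakest chaperone peaks rest on 25 pooled tags, and 2 libraries per group with shrunken values limit every comparison.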
